A study of Mus musculus with 12 samples.

Results

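The lungs of Control mice were compared between postnatal day 14 (P14) and postnatal day 36 (P36). The 6 Control libraries, 3 at each age, are 6 of the 12 libraries of the study, and the other 6 come from lungs with a conditional knockout (CKO) of Tbx4 at the same ages. The libraries were chosen by their labels alone. The features described are the 15372 autosomal genes that passed a filter on low counts, of 23248 autosomal genes in the count table. All Control mice, at both ages, carried floxed alleles of Tbx4 (Tbx4fl/fl), so they are described here as Control and not as wild type. The tissue is labelled lung. The labels give no sex, litter, strain, Cre driver, time of day or number of animals. The labels list the libraries as replicates without saying that each is a separate animal, so the spread behind the p-values is that between libraries and may be technical in part.

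At P14 the mouse lung is still forming alveoli. Secondary septa grow into the air sacs, and myofibroblasts at their tips lay down elastin. Over the following weeks the septa thin, the capillary network matures, growth slows, and the pool of immune cells resident in the lung fills. Surfactant from alveolar type 2 cells keeps the air spaces open throughout, and flat alveolar type 1 cells form most of the gas exchange surface.

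Depth was 18836274 to 21368801 counts per library at P14 and 24183550 to 28481876 at P36, so depth goes with age. Epithelial and endothelial markers were high in all 6 libraries. The surfactant gene Sftpc, which marks lung, stood at 2326 to 7340 counts per 1000000 counts (CPM) and the endothelial gene Pecam1 at 500.4 to 767 CPM. P36 replicates 1 and 3 carry the same library number, 1424. Their counts differed by 2.01% (biological coefficient of variation) against 10.4% to 21.5% in the other 5 Control pairs, and by more than sampling noise, with a mean chi-square per gene of 2.09 against 20.5 to 43.5. They may therefore be 1 animal. Counts of list members called in Control are given with these libraries as separate replicates and then with their counts added together, called the pair-summed count. A gene is described in words as having risen or fallen only where it passed an adjusted p of 0.05 in both fits. P36 replicate 2 had 0.340 CPM of Xist and 145 CPM of the Y-linked gene Ddx3y, whereas the other 5 libraries had 3138 to 5382 CPM of Xist and at most 0.0947 CPM of Ddx3y. Sex was thus mixed at P36 only, which is one reason that sex-linked genes are left out. A further fit left out P36 replicate 2 and summed the pair, so that only Control libraries with Xist remained. The CKO libraries stayed in that fit and help set its spread, and all 3 of them at P36 had Y-linked reads. The fit leaves 1 Control library at P36, which is assumed to vary like the other groups. Its counts are called the 4-library counts, after the Control libraries in it. The P14 libraries differed in genes of tissue around the lung. P14 replicates 2 and 3 were high in 13 cardiac muscle genes, with summed levels of 5763 and 3850 CPM. These genes summed to 384 CPM in P14 replicate 1 and 459 to 499 CPM at P36. Their mean level, on a log2 scale centred on the 6 libraries, was 2.08 and 1.55 in P14 replicates 2 and 3. It was -1.38 in P14 replicate 1 and -1.16 to -0.53 at P36. The mean level of 12 adipose genes was lowest in P14 replicate 1, at -2.06 on the same scale, against -0.80 to 0.93 in the other 5.

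Tbx4, a T-box transcription factor of lung mesenchyme and the gene targeted in the CKO, fell with age in Control lung. It lies at chr11:85890063-85916097 (mm10) and stood at 157, 110.3 and 134 CPM at P14 and 64.4, 79.8 and 62.7 CPM at P36. No P36 library reached the lowest P14 library. The log2 difference was -0.95 ± 0.14 (SE, adjusted p = 0.00038). In CKO lung Tbx4 was at 111 to 129 CPM at P14 and 67.2 to 87.4 CPM at P36. The CKO and Control libraries overlapped at both ages, with means of 121 ± 8.93 and 134 ± 23.2 CPM at P14 and 79.1 ± 10.6 and 69.0 ± 9.39 CPM at P36 (SD, n = 3 each). The labels do not say which exons were deleted, so the count over the whole gene does not check the genotype.

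Of the 15372 autosomal genes, 6424 (41.8%) changed between P14 and P36 in Control lung by edgeR's quasi-likelihood test with Benjamini-Hochberg adjustment, 3214 (20.9%) higher and 3210 (20.9%) lower at P36. With the shared-number pair summed, 2430 (15.8%) were higher and 1928 (12.5%) lower. A difference of at least 2-fold was reached by 804 of the higher genes (5.23% of all 15372) and 802 of the lower genes (5.22% of all 15372). The 3 libraries of each age did not overlap in 8141 genes (53%). The median log2 difference of all autosomal genes was -0.0015. In bulk tissue, more cells of a type and more RNA per cell cannot be told apart.

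The 12 largest rises included genes of NK cells and of cytotoxic granules. Cyp1a1 (chr9:57687928-57703824), a cytochrome P450 induced by ligands of the aryl hydrocarbon receptor, had 2 counts over the 3 P14 libraries and 618 over the 3 P36 libraries. That is a ratio of 243 (95% counting interval 67.1 to 2015) after scaling for depth. By library it stood at 0, 0.0986 and 0 CPM at P14 and 7.42, 10.96 and 6.04 CPM at P36. Klra9, a receptor of natural killer (NK) cells with near-identical paralogs among which reads may be divided, had 0 counts at P14 and 83 at P36, at least 21.8-fold higher taking 3 counts over the P14 group as the floor. Klrc2, another NK receptor gene, had 3 counts at P14 and 107 at P36, a ratio of 28.1 (95% counting interval 9.36 to 138). The cytotoxic granule genes Gzmb, Gzma and Prf1 rose together with these. Prf1, the pore-forming perforin, was at 0.237, 0.0986 and 0.526 CPM at P14 and 6.15, 7.31 and 6.04 CPM at P36, a log2 difference of 4.49 ± 0.46 (SE, adjusted p = 3.4e-05). Gzma, a granzyme, was at 0.568, 0.247 and 0.473 CPM at P14 and 9.93, 12.1 and 8.699 CPM at P36, a log2 difference of 4.55 ± 0.66 (SE, adjusted p = 0.0004). Slpi, a secreted inhibitor of leukocyte proteases, stood at 0.947, 0.444 and 0.578 CPM at P14 and 12.9, 4.84 and 12.04 CPM at P36, with replicate 2 the lowest of the P36 libraries and still above every P14 library. Tat, a tyrosine aminotransferase, stood at 0.0474, 0.197 and 0.0526 CPM at P14 and 2.61, 0.637 and 3.42 CPM at P36, again lowest in P36 replicate 2. Ppp2r2c, a regulatory subunit of protein phosphatase 2A, went the other way within P36, at 1.91 and 1.61 CPM in replicates 1 and 3 and 7.99 CPM in replicate 2, and its log2 difference of 3.65 became 2.55 in the 4-library fit. The chloride exchanger gene Slc26a3, the ligand gene Gdf2 and the soluble interleukin-22 receptor gene Il22ra2 completed the 12 largest rises, with log2 differences of 4.55, 3.93 and 3.78, and all 12 passed in the 4-library fit.

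Genes that fell most included calcium channel, retinoid and matrix genes. Crabp1 (chr9:54764748-54773110), which binds retinoic acid in the cytosol, went from 35.1, 17.2 and 22.4 CPM at P14 to 0.283, 1.61 and 0.242 CPM at P36, a log2 difference of -5.16 ± 0.69 (SE, adjusted p = 0.00026). Adamts17, a secreted metalloprotease, stood at 331, 244 and 325 CPM at P14 and 13.95, 35.7 and 13.5 CPM at P36. Its P36 libraries lay at 13.5 to 35.7 CPM, the highest of them in replicate 2, and its log2 difference was -3.84 ± 0.37 (SE, adjusted p = 4.6e-05). Thbs2, a thrombospondin of the matrix, was at 59.1, 44.2 and 37.6 CPM at P14 and 2.79, 4.504 and 3.46 CPM at P36. Cacna1g, the pore subunit of a T-type calcium channel, was at 16.3, 15.04 and 12.9 CPM at P14 and 0.918, 1.15 and 0.926 CPM at P36. Nell1, a secreted glycoprotein gene, had 143 counts at P14 and 2 at P36, a ratio of 90.8 (95% counting interval 24.7 to 757). Trim67, Camk1g, Kctd16, Mansc4, A2m and Egfem1 fell by 4.95, 5.31, 4.19, 4.07, 3.71 and 3.68 on the log2 scale, and the 4-library fit kept all of these except A2m, whose adjusted p there was 0.056. Lrrc10, a cardiac gene, stood at 0.284, 3.21 and 1.998 CPM at P14 and 0.106, 0 and 0.0805 CPM at P36. Its low P14 library is replicate 1, the one with few cardiac transcripts, and its adjusted p in the 4-library fit was 0.12, so the part of heart tissue in this difference was not tested.

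**Figure D1:**
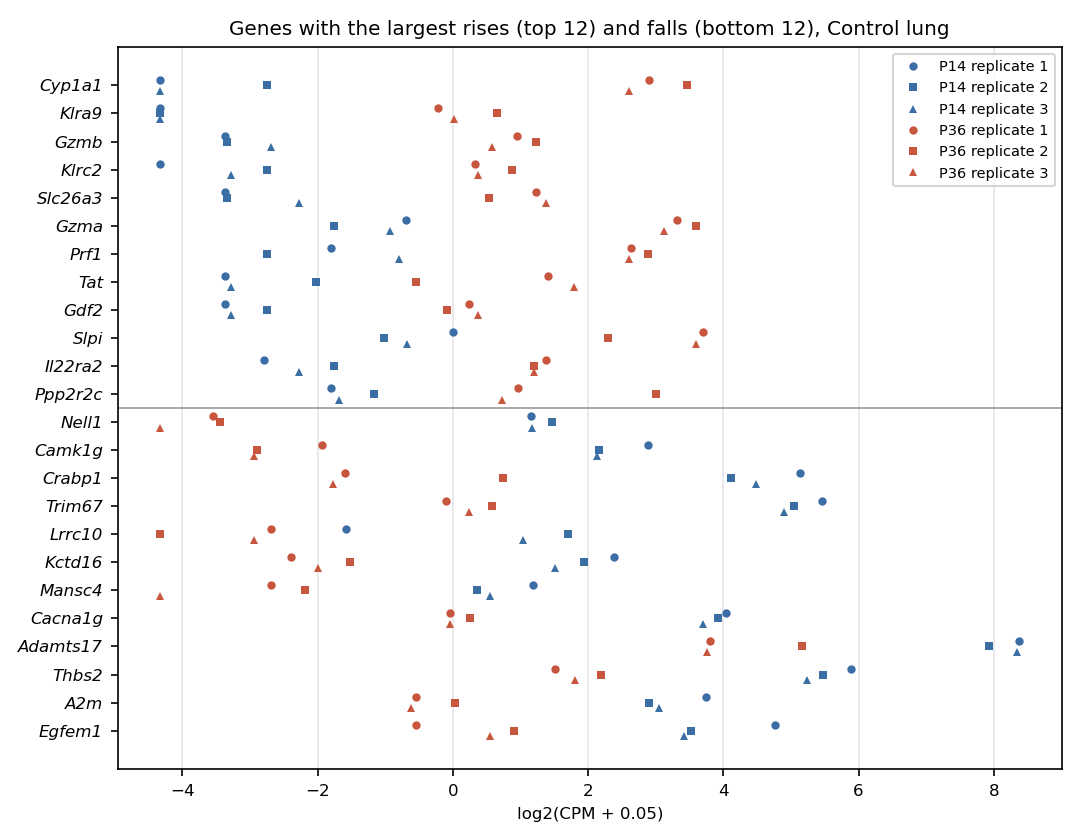
Level of the 12 autosomal genes with the largest rises and the 12 with the largest falls in each Control library, as log2 of CPM plus 0.05 on the horizontal axis. Blue marks are P14 and red marks P36, and the mark's shape gives the replicate. The genes were chosen so that the 2 colours do not overlap in any row, and Lrrc10 has its lowest P14 value in replicate 1.

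Cell division genes fell as a group. Of 34 genes of mitosis, 32 were lower and 0 higher at P36 (30 pair-summed and 19 in the 4-library counts), against 20.9% of all genes lower. Their median log2 difference was -0.93 and no member had a positive difference. Mki67, the gene of the Ki-67 proliferation antigen, stood at 109.6, 95.9 and 113 CPM at P14 and 49.3, 57.02 and 48.2 CPM at P36. Ccna2, the cyclin of late S phase and G2, stood at 13.9, 15.6 and 15.9 CPM at P14 and 5.899, 5.52 and 4.99 CPM at P36, a log2 difference of -1.47 ± 0.12 (SE, adjusted p = 7.8e-06). The spindle motor genes Cenpe and Kif11 fell by 1.16 and 1.09 on the log2 scale. P14 and P36 libraries did not overlap in any of these 4 genes, which were named by small p, nor in 53% of all genes. Genes of DNA replication gave another picture. Of 30 tested, 7 were lower and 1 higher (3 and 1 pair-summed), with a median of -0.07. The count of lower members was 3 without P14 replicate 1, 4 without P36 replicate 3 and 1 in the 4-library fit, and that of higher members was 2 without P14 replicate 1 and 3 without P36 replicate 2. Rrm2, a ribonucleotide reductase subunit, fell from 7.67, 8.78 and 10.3 CPM at P14 to 4.87, 4.12 and 4.63 CPM at P36. Cdc45, of the replicative helicase, fell by 0.56 on the log2 scale, and the cyclin E gene Ccne2 by 0.80. Pcna, the sliding clamp of DNA polymerases, rose from 25.7, 21.6 and 24.03 CPM at P14 to 29.6, 29.4 and 30.6 CPM at P36, a log2 difference of 0.33 ± 0.07 (SE, adjusted p = 0.0034). Of 13 cell cycle inhibitors, 4 were higher and 2 lower (3 and 1 pair-summed, 1 and 1 in the 4-library fit, and 2 higher without P36 replicate 3), a share near that of all genes. The antiproliferative genes Btg1 and Btg2 rose by 0.45 and 0.79 on the log2 scale, and Cdkn1c, an imprinted inhibitor of cyclin-dependent kinases, fell by 0.65.

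The promoters of mitosis genes are known to carry a cell cycle homology region, read TTTGAA or TTCGAA, and CCAAT boxes bound by NF-Y, while E2F sites of the form TTTGGCGC are typical of replication genes. These motifs were searched on both strands in the RefSeq promoters of GRCm38.p6, which is the mm10 build, from 250 bases before to 50 after each start. TTTGAA was in the promoters of 21 of the 29 mitosis genes with an entry (72.4%) and in 17.9% of all 32851 promoters. TTCGAA was in 3 of the 29, against 1.56% of all. CCAAT was in 21 of the 29, against 37.4% of all. TTTGGCGC was in 0 of the 29, against 0.514% of all. Among 24 replication genes with an entry, TTTGAA was in 3, CCAAT in 14 and TTTGGCGC in 4, and that list was added to the search after its differences had been seen. No motif overlaps another in the sequences printed, and a match is a description of the sequence, not of binding. The 3 mitosis genes with the largest falls that have an entry are shown 5′ to 3′ on the strand of the gene, with matches in capitals. Ttk, a spindle checkpoint kinase, is at chr9:83834439-83834738 on the plus strand, Birc5, the survivin subunit of the chromosomal passenger complex, at chr11:117848987-117849286 on the plus strand, and Cenpf, a kinetochore protein, at chr1:189688037-189688336 on the minus strand. Ccna2 fell more than Cenpf and has no entry.
Ttk: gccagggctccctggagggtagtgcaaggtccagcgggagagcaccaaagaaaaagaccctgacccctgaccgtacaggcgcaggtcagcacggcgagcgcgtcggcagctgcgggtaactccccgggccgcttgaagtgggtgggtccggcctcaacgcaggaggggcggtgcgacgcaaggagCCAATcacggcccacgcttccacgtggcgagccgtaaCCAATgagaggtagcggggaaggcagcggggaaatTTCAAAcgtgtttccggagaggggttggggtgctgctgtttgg
Birc5: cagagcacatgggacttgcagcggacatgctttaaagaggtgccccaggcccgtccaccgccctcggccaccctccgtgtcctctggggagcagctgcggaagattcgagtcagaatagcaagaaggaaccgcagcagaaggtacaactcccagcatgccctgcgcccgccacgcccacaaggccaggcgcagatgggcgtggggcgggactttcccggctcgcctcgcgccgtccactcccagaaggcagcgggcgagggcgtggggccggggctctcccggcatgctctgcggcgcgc
Cenpf: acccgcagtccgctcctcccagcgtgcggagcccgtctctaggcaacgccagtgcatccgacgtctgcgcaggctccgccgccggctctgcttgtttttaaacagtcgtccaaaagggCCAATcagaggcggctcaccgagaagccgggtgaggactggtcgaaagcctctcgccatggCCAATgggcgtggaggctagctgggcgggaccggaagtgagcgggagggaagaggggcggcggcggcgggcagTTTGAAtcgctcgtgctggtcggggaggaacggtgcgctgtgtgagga
In Ttk the capitals mark CCAAT at 65 and 28 bases before the start and, on the opposite strand, TTTGAA 8 bases after it. In Cenpf they mark CCAAT at 132 and 71 bases before the start and TTTGAA 3 bases after it. The Birc5 window holds none of the 4 motifs. Ttk stood at 4.499, 4.44 and 6.52 CPM at P14 and 1.94, 1.53 and 1.73 CPM at P36, Birc5 at 6.39, 4.78 and 4.84 CPM at P14 and 1.87, 1.83 and 2.01 CPM at P36 and Cenpf at 20.8, 21.9 and 24.9 CPM at P14 and 8.301, 8.75 and 8.66 CPM at P36. All 3 fell, with log2 differences of -1.56, -1.49 and -1.40, whether or not the window held a motif.

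Imprinted genes of growth control, which are expressed from 1 parental allele and are known to decline after birth in many organs, were lower at P36 in 12 of 21 tested and higher in 1 (11 and 0 pair-summed), with a median of -0.65. Peg3 (chr7:6705960-6730419), a paternally expressed zinc finger gene, stood at 235, 233 and 226 CPM at P14 and 45.9, 43.7 and 48.5 CPM at P36, a log2 difference of -2.33 ± 0.07 (SE, adjusted p = 4.7e-09). Its libraries lay within 10 CPM of each other at each age. H19, a maternally expressed non-coding RNA, went from 27.9, 31.5 and 23.98 CPM at P14 to 2.296, 3.27 and 1.73 CPM at P36, a 11.4-fold fall. Zim1 went from 9.85, 15.3 and 12.7 CPM at P14 to 1.41, 1.105 and 1.05 CPM at P36. Grb10, an adaptor that dampens insulin receptor signalling, fell by 1.38 on the log2 scale. H19 and Igf2 are neighbours on chromosome 7, and Igf2 fell from 30.3, 51.1 and 38.9 CPM at P14 to 14.5, 14.5 and 13.5 CPM at P36. P14 and P36 libraries of these 5 genes did not overlap, as in 53% of all genes. Of 17 genes of insulin-like growth factor signalling, 8 were lower and 2 higher (7 and 2 pair-summed, 5 and 1 in the 4-library fit). Igf1, the main postnatal ligand, fell from 121, 143 and 156 CPM at P14 to 67.1, 80.9 and 69.2 CPM at P36. Pappa, a protease that frees the ligand from its binding proteins, fell by 1.34 on the log2 scale, and Igfbp4, a substrate of that protease, by 0.65. Among 24 developmental regulators 9 were lower and 3 higher in both fits. Igf2bp3, an RNA-binding protein of fetal tissue, fell by 1.56. Tbx2 and Tbx5, T-box genes of lung mesenchyme like Tbx4, fell by 0.88 and 1.06. Foxa2, a transcription factor of airway and alveolar epithelium, rose from 22.4, 22.7 and 25.3 CPM at P14 to 40.5, 35.9 and 39.5 CPM at P36.

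Matrix genes fell across the families of the septal wall. Elastin (Eln, chr5:134702596-134747254) stood at 5060.4, 3803 and 4413 CPM at P14 and 324, 584 and 335 CPM at P36, a 10.7-fold fall and a log2 difference of -3.42 ± 0.25 (SE, adjusted p = 6.5e-06). Every P36 library was below 600 CPM, and replicate 2 was the highest of them. Of 20 elastic fibre genes, 13 were lower and 3 higher in both fits, with a median of -0.66. Fbn2, the fibrillin of developing microfibrils, stood at 50.1, 32.2 and 36.2 CPM at P14 and 6.61, 10.6 and 8.22 CPM at P36. Loxl2, a lysyl oxidase that crosslinks matrix proteins, fell by 1.24 on the log2 scale, and Fbln2, a fibulin, by 1.41. Of 24 genes of fibrillar collagen and its processing, 13 were lower and 1 higher (12 and 1 pair-summed, with 2 higher without P14 replicate 3). Col3a1 stood at 1838, 2079 and 2136 CPM at P14 and 666, 726 and 640.5 CPM at P36. Col5a1 and Col5a2, the collagen V chains that seed fibrils, fell by 1.83 and 0.99. Adamts2, which trims procollagen, fell from 226, 214 and 229 CPM at P14 to 89.4, 89.02 and 89.2 CPM at P36, a log2 difference of -1.32 ± 0.06 (SE, adjusted p = 4.7e-07). The basement membrane list gave 16 lower and 0 higher of 22 (14 and 0 pair-summed). Nid2, a nidogen that links laminin to collagen IV, fell by 1.70, and the laminin chains Lama4, Lamb1 and Lamc1 by 1.01, 1.003 and 0.97.

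Matricellular genes and matrix proteases were lower more often than all genes, of which 20.9% were lower (12.5% pair-summed). The share of higher members was below that of all genes, 20.9% (15.8% pair-summed). Of 20 matricellular genes, 11 were lower and 3 higher (8 and 2 pair-summed, with 7 lower in the 4-library fit). Fn1, fibronectin, stood at 2871, 2006 and 2827 CPM at P14 and 636, 729 and 642 CPM at P36. Vcan, the proteoglycan versican, fell by 1.33 on the log2 scale. Spp1, osteopontin, went against the group and rose from 4.17, 4.69 and 4.47 CPM at P14 to 33.1, 38.7 and 34.3 CPM at P36, a log2 difference of 2.99 ± 0.23 (SE, adjusted p = 7.2e-06). Of 23 matrix proteases and inhibitors, 11 were lower and 4 higher (10 and 3 pair-summed, 7 and 2 in the 4-library fit). Mmp14, a membrane protease that activates the gelatinase encoded by Mmp2, fell by 1.26, and Mmp2 fell by 0.997. Adamts12 fell from 83.7, 74.2 and 75.4 CPM at P14 to 11.3, 16.7 and 9.102 CPM at P36, and Adamts10 by 1.27.

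**Figure D2:**
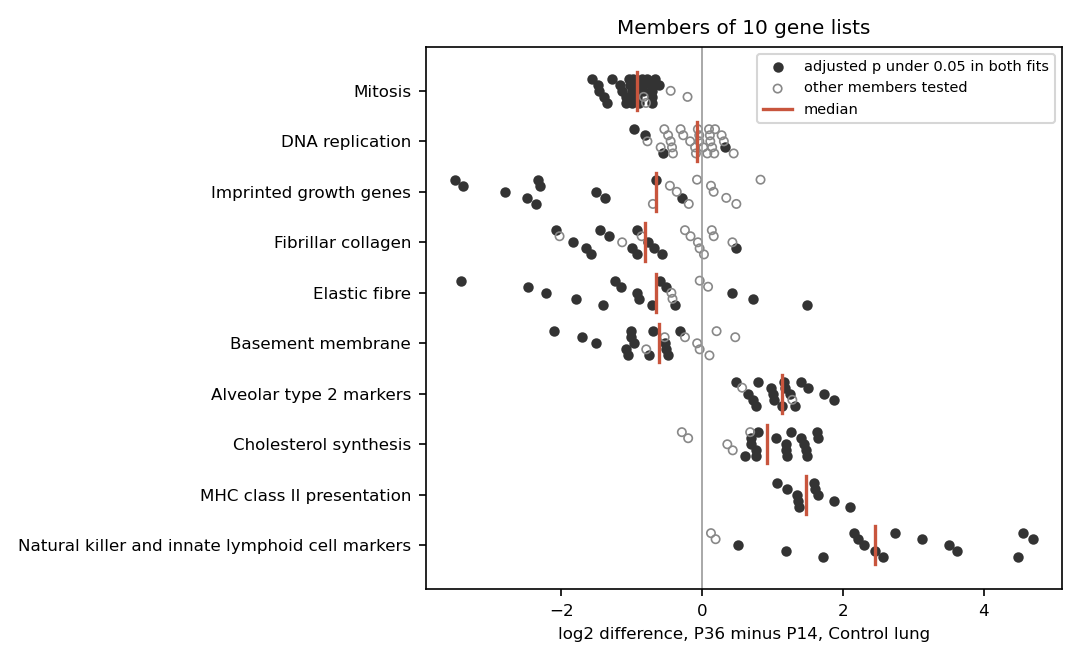
Log2 difference between P36 and P14 in Control lung of every tested member of 10 gene lists. Filled marks passed an adjusted p of 0.05 in both fits, open marks did not, and the red bar is the list's median; the mitosis members all lie below 0, the replication members spread around 0, and all 10 members of the MHC class II list lie above 1.

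Markers of myofibroblasts and pericytes were lower at P36 in part, and mesothelial markers were higher. Of 15 alveolar myofibroblast markers, 11 were lower and 0 higher (8 pair-summed and 4 in the 4-library fit), with a median of -0.89. Aspn, asporin, fell from 298, 194 and 244 CPM at P14 to 43.9, 41.9 and 50.2 CPM at P36, a log2 difference of -2.44 ± 0.15 (SE, adjusted p = 2.2e-06). Hhip, an inhibitor of hedgehog ligands, fell from 358, 217 and 272 CPM at P14 to 76.1, 118 and 77.2 CPM at P36. Of 15 pericyte markers, 11 were lower (6 pair-summed), and Rgs5, a regulator of G protein signalling, fell from 67.4, 49.8 and 60.7 CPM at P14 to 9.54, 13.04 and 8.78 CPM at P36. Cspg4, Notch3 and Mcam fell by 0.95, 0.82 and 0.87 on the log2 scale, with P36 replicate 2 the highest of the P36 libraries in each. Of 16 smooth muscle markers, 9 were lower (5 pair-summed and 3 in the 4-library fit). Their mean centred log2 level was -0.30 in P14 replicate 1 and 0.90 and 0.68 in P14 replicates 2 and 3, against -0.44 to -0.41 at P36. The low P14 library is the one low in cardiac genes, and the part of heart or large vessel tissue in this list was not tested. Mylk, the kinase of smooth muscle myosin, differed from the list in having level P14 libraries, at 973, 1061 and 1021 CPM at P14 and 495, 637 and 501 CPM at P36. Alveolar fibroblast markers moved both ways, with 8 of 20 lower and 5 higher (6 and 5 pair-summed, with 5 lower in the 4-library fit). Mfap4, a microfibril-associated protein, fell from 3659.7, 2198 and 3452 CPM at P14 to 455, 722 and 493 CPM at P36, whereas Inmt, a methyltransferase, rose from 314, 204 and 304 CPM at P14 to 1084, 949.7 and 1099 CPM at P36. Of 18 adventitial fibroblast markers, 5 were higher and 5 lower (4 and 4 pair-summed, 3 and 3 in the 4-library fit), and Ly6a rose from 51.7, 48.1 and 71.9 CPM at P14 to 182, 207 and 186 CPM at P36. For these fibroblast lists the share of all genes was 20.9% in each direction (15.8% higher and 12.5% lower pair-summed). Of 9 mesothelial markers, 8 were higher and 0 lower (7 pair-summed), and Gpm6a rose from 32.7, 18.1 and 32.2 CPM at P14 to 146, 111 and 148 CPM at P36. The lowest library of that list at each age was replicate 2, with a centred mean of -1.32 at P14 and 0.35 at P36.

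Signalling lists of septal growth were lower or near the share of all genes, which was 20.9% in each direction (15.8% higher and 12.5% lower pair-summed). Of 15 hedgehog genes, 9 were lower and 0 higher (8 pair-summed). Gli3, a transcription factor of the pathway, fell from 35.00, 32.3 and 32.7 CPM at P14 to 19.1, 21.4 and 18.6 CPM at P36, and Smo, Boc and Scube2, which are the signal transducer, a co-receptor and a gene that helps release the ligand, fell by 0.43, 0.69 and 1.64 on the log2 scale. Of 31 Wnt genes, 10 were lower and 6 higher (8 and 4 pair-summed, 2 and 2 in the 4-library fit, and 3 higher without P36 replicate 1). Axin2, a feedback target of the pathway, fell from 70.9, 63.8 and 67.6 CPM at P14 to 34.01, 41.7 and 31.8 CPM at P36. Rspo1, a secreted enhancer of Wnt signals, rose from 5.35, 2.61 and 5.99 CPM at P14 to 16.8, 10.5 and 17.96 CPM at P36. Of 16 fibroblast growth factor genes, 6 were lower and 4 higher (4 and 4 pair-summed, with 3 lower in the 4-library fit). The receptor genes went different ways, with Fgfr1 and Fgfr4 falling by 0.78 and 1.38 and Fgfr2, the epithelial receptor, rising by 0.62. Of 16 Notch genes, 6 were lower and 1 higher (4 and 1 pair-summed), with 0 higher without P14 replicate 1, 2 or 3 or without P36 replicate 2. The ligand gene Jag2 fell by 0.86 and the target gene Heyl by 1.15. Of 30 genes of bone morphogenetic protein signalling, 10 were lower and 6 higher (7 and 5 pair-summed, 3 and 3 in the 4-library fit). Fstl1, a secreted antagonist, fell from 417, 343 and 373 CPM at P14 to 131, 121 and 135 CPM at P36. Of 19 TGF-beta genes, 4 were lower and 1 higher (2 and 1 pair-summed), against 20.9% of all genes in each direction. Ltbp3, which stores the latent ligand in the matrix, fell by 0.63.

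Alveolar epithelial markers rose. Of 19 type 2 cell markers, 18 were higher and 0 lower (17 pair-summed), against 20.9% of all genes higher, with a median of 1.14. The surfactant protein gene Sftpa1 stood at 776, 541 and 729.9 CPM at P14 and 2786, 1941 and 2789 CPM at P36, a log2 difference of 1.88 ± 0.16 (SE, adjusted p = 8.8e-06). Sftpb, whose product spreads surfactant lipid, stood at 1753, 1583 and 1893 CPM at P14 and 4417, 3478 and 4575 CPM at P36. Lyz2, lysozyme, and Chil1, a chitinase-like protein, rose by 1.73 and 1.51 on the log2 scale, and Lyz2 is also a gene of macrophages, which rose too. Per kilobase of exon, Sftpb went from 1115 to 2658 CPM and Sftpa1 from 246 to 903 CPM, so the level of Sftpa1 stayed below that of Sftpb while its change was larger. In P36 the type 2 genes were lowest in replicate 2, whose centred mean over the list was 0.32 against 0.67 and 0.66, and above all of P14. Of 16 type 1 cell markers, 11 were higher and 0 lower (10 pair-summed and 6 in the 4-library fit), with a median of 0.61. Hopx, a homeobox gene of type 1 cells, stood at 186, 148 and 169 CPM at P14 and 369, 319.9 and 357 CPM at P36, and Pdpn, podoplanin, at 72.2, 45.03 and 67.7 CPM at P14 and 122, 106 and 124 CPM at P36. Clic5 and Gprc5a rose by 0.74 and 0.75. The 2 ages did not overlap in any of these 8 genes, which were named by small p, nor in 53% of all genes.

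Airway markers rose in part and varied between libraries. Of 18 club and secretory cell markers, 7 were higher and 0 lower (5 pair-summed and 3 in the 4-library fit). Scgb1a1 (chr19:9083642-9087956), the main secretory protein of club cells, stood at 9745, 13201 and 9263 CPM at P14 and 30462, 24038 and 30876 CPM at P36, a log2 difference of 1.41 ± 0.25 (SE, adjusted p = 0.00094). Cbr2, a carbonyl reductase, and Pon1, a paraoxonase, rose by 1.38 and 1.62 on the log2 scale. The list's mean centred level was -2.07 in P14 replicate 1 and -0.88 in P36 replicate 2, against 0.36 to 0.88 in the other 4, and the same 2 libraries were low in adipose genes. How much airway was sampled was not tested. Of 19 ciliated cell markers, 1 was higher and 0 lower in both fits, below the share of all genes, and that gene was Tppp3, at 105, 109.6 and 109 CPM at P14 and 167, 129 and 160.1 CPM at P36. Of 13 genes of airway and alveolar fluid transport, 7 were higher and 1 lower (5 and 1 pair-summed). The 3 subunits of the epithelial sodium channel, Scnn1a, Scnn1b and Scnn1g, rose by 0.82, 0.92 and 0.69, while Slc12a2, the cotransporter that brings chloride into secreting cells, fell from 614, 521 and 507 CPM at P14 to 389.6, 330.1 and 397 CPM at P36.

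Endothelial lists gave calls in both directions, beside 20.9% of all genes in each (15.8% higher and 12.5% lower pair-summed). The capillary, aerocyte and arterial counts were near or below that share with all libraries apart or the pair summed. General capillary markers gave 2 higher and 2 lower of 12 (2 and 0 pair-summed), aerocyte markers 1 and 1 of 11 (2 higher without P14 replicate 1 or 3 and 2 lower without P36 replicate 2), and arterial markers 2 and 3 of 13 (2 and 2 pair-summed, with 6 lower without P36 replicate 2). Plvap, of endothelial diaphragms, stood at 140.0, 81.2 and 120.2 CPM at P14 and 195, 301 and 196 CPM at P36, highest in P36 replicate 2, and its adjusted p in the 4-library fit was 0.071. Lpl, lipoprotein lipase, rose from 86.4, 120.3 and 120.0 CPM at P14 to 230.0, 199.6 and 235 CPM at P36. Sox17, an arterial transcription factor, fell by 0.61 and the guidance receptor gene Unc5b by 1.01 on the log2 scale. Of 10 venous markers, 5 were higher and 2 lower (5 and 1 pair-summed), against 20.9% of all genes in each direction. Vwf, von Willebrand factor, rose from 375, 322 and 311 CPM at P14 to 475, 603 and 478 CPM at P36, and Selp, P-selectin, from 1.37, 1.23 and 0.894 CPM at P14 to 5.404, 3.61 and 4.47 CPM at P36. Prox1, the regulator of lymphatic identity, fell from 10.4, 15.4 and 11.9 CPM at P14 to 4.31, 4.42 and 5.28 CPM at P36. Of 20 vascular tone genes, 8 were lower and 4 higher (6 and 4 pair-summed, with 1 higher in the 4-library fit). The higher members of that list were near the 20.9% of all genes. Agt, angiotensinogen, fell from 20.9, 13.4 and 14.1 CPM at P14 to 1.48, 0.765 and 2.13 CPM at P36. Nos3, endothelial nitric oxide synthase, fell from 35.9, 38.8 and 41.01 CPM at P14 to 13.3, 22.8 and 13.6 CPM at P36, and Kcnk3, a potassium channel gene of the pulmonary circulation, from 80.7, 80.3 and 86.2 CPM at P14 to 30.4, 46.4 and 32.4 CPM at P36. In both of these P36 replicate 2 was the highest P36 library and still below P14.

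Lymphoid markers were higher at P36. Of 17 NK and innate lymphoid markers, 15 were higher and 0 lower in both fits, with a median of 2.45. Ncr1, an activating receptor that marks NK cells, stood at 0.568, 0.542 and 0.894 CPM at P14 and 8.16, 9.31 and 7.25 CPM at P36, a log2 difference of 3.62 ± 0.29 (SE, adjusted p = 7.2e-06). Klrd1, the CD94 chain, stood at 2.700, 2.71 and 3.05 CPM at P14 and 11.4, 15.1 and 11.4 CPM at P36, and Klrb1c and Klre1, 2 further NK receptor genes, rose by 2.75 and 3.50 on the log2 scale. Of 22 T cell markers, 18 were higher and 0 lower (17 pair-summed), with a median of 1.10. Cd3g, a chain of the T cell receptor complex, stood at 1.94, 1.23 and 1.89 CPM at P14 and 5.58, 5.35 and 6.24 CPM at P36. Cd8a, Cd28 and Cd2 rose by 1.14, 1.20 and 1.61. Of 14 B cell markers, 13 were higher and 0 lower (12 pair-summed). Cr2, the complement receptor of B cells, stood at 4.26, 3.896 and 3.102 CPM at P14 and 14.8, 16.4 and 14.8 CPM at P36, and Fcer2a, the low-affinity IgE receptor, at 6.16, 5.57 and 6.94 CPM at P14 and 20.8, 19.7 and 22.3 CPM at P36. Of 9 plasma cell markers, 6 were higher in both fits. Jchain, which joins secreted IgA and IgM, went from 0.284, 0.493 and 0.841 CPM at P14 to 4.42, 5.06 and 4.75 CPM at P36, a log2 difference of 3.14 ± 0.37 (SE, adjusted p = 7.5e-05). P14 and P36 libraries did not overlap in any of these genes, which were named by small p, nor in 53% of all genes. The only lymphoid gene named here that fell was Rag1, the recombinase of developing lymphocytes and one of 3 tested thymocyte markers, from 2.08, 2.17 and 2.31 CPM at P14 to 0.424, 1.105 and 0.483 CPM at P36. Whether thymus or lymph node tissue was carried along was not tested.

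Myeloid markers rose as well. Of 15 alveolar macrophage markers, 12 were higher and 0 lower in both fits, with a median of 1.48. Chil3, the chitinase-like protein Ym1, stood at 34.5, 25.4 and 31.5 CPM at P14 and 406, 231 and 402 CPM at P36, a 11.4-fold rise and a log2 difference of 3.51 ± 0.23 (SE, adjusted p = 5.3e-06). Its level in P36 replicate 2 was the lowest of that age and above every P14 library. Siglecf, a surface lectin of alveolar macrophages and eosinophils, stood at 7.15, 4.98 and 7.099 CPM at P14 and 19.2, 17.6 and 20.4 CPM at P36. Itgax, CD11c, and Atp6v0d2, a proton pump subunit, rose by 1.49 and 1.53 on the log2 scale. Of 12 monocyte markers, 11 were higher and 0 lower (10 pair-summed), and Ccr2, the chemokine receptor by which monocytes leave bone marrow, stood at 20.6, 21.3 and 20.9 CPM at P14 and 70.3, 61.02 and 73.9 CPM at P36. Of 17 interstitial macrophage markers, 5 were higher and 1 lower (2 lower without P36 replicate 2), a smaller share than in the alveolar list, although the difference of shares was not tested. Csf1r, the growth factor receptor of macrophages, rose by 0.50. Of 15 dendritic cell markers, 12 were higher and 2 lower (10 and 1 pair-summed). Xcr1, of cross-presenting dendritic cells, stood at 1.66, 2.12 and 2.58 CPM at P14 and 7.56, 5.35 and 6.73 CPM at P36, and Siglech, of plasmacytoid dendritic cells, at 1.18, 1.08 and 0.789 CPM at P14 and 7.74, 4.42 and 7.77 CPM at P36. Fscn1, the actin bundler of mature dendritic cells, which other cells also express, fell from 40.8, 32.7 and 35.97 CPM at P14 to 12.3, 14.8 and 12.9 CPM at P36. Of 11 neutrophil markers, 9 were higher and 1 lower (8 and 0 pair-summed, with 4 higher in the 4-library fit), and Lcn2, lipocalin 2, stood at 27.4, 20.2 and 29.03 CPM at P14 and 82.4, 50.9 and 79.9 CPM at P36. The 7 markers of mast cells, basophils and eosinophils gave 1 higher gene, Hdc, histidine decarboxylase, at 35.7, 40.9 and 37.7 CPM at P14 and 63.5, 58.04 and 66.98 CPM at P36. Of the genes of blood cells without nuclei, 0 of 12 platelet markers passed with all libraries apart or the pair summed, while 4 were higher without P14 replicate 2 and 1 lower without P14 replicate 3. Of 7 erythroid markers, 1 was lower with all libraries apart and 0 with the pair summed.

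Genes of antigen presentation and of the interferon response rose with these markers. All 10 tested genes of MHC class II presentation were higher in both fits, with a median of 1.48. H2-Aa stood at 134, 101 and 132 CPM at P14 and 393, 328 and 393 CPM at P36, H2-Eb1 at 17.6, 14.1 and 17.1 CPM at P14 and 53.2, 42.7 and 57.1 CPM at P36 and H2-Ob, a brake on peptide loading, at 8.004, 8.48 and 9.04 CPM at P14 and 32.4, 28.6 and 32.4 CPM at P36. Of 14 genes of MHC class I presentation, 13 were higher and 0 lower (12 pair-summed). H2-D1, whose reads may be divided with related class I genes, stood at 95.4, 94.3 and 107 CPM at P14 and 234, 243 and 230.0 CPM at P36, and Psmb9, a subunit of the immunoproteasome, rose by 1.37 on the log2 scale. Of 25 interferon-stimulated genes, 22 were higher and 0 lower (20 pair-summed and 11 in the 4-library fit), with a median of 0.95. Ifit1 and Ifit3, antiviral proteins, rose by 1.44 and 1.62. Irf7, the master regulator of type I interferon genes, stood at 5.64, 4.93 and 4.42 CPM at P14 and 11.4, 10.4 and 10.4 CPM at P36. Of 19 complement genes, 11 were higher and 0 lower in both fits, and C3, the central component, stood at 163, 153 and 196 CPM at P14 and 1005, 674 and 1008 CPM at P36. C4b rose by 2.60. Of 26 cytokine and chemokine genes, 18 were higher and 1 lower (17 and 0 pair-summed, with 2 lower without P36 replicate 2). Ccl6, a chemokine of myeloid cells, rose from 51.5, 38.4 and 52.8 CPM at P14 to 153, 119 and 156 CPM at P36, and Csf1, a growth factor of macrophages, from 33.5, 34.2 and 37.9 CPM at P14 to 51.6, 51.6 and 49.4 CPM at P36. The log2 difference of Csf1 was 0.53 ± 0.06 (SE, adjusted p = 9.5e-05).

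**Figure D3:**
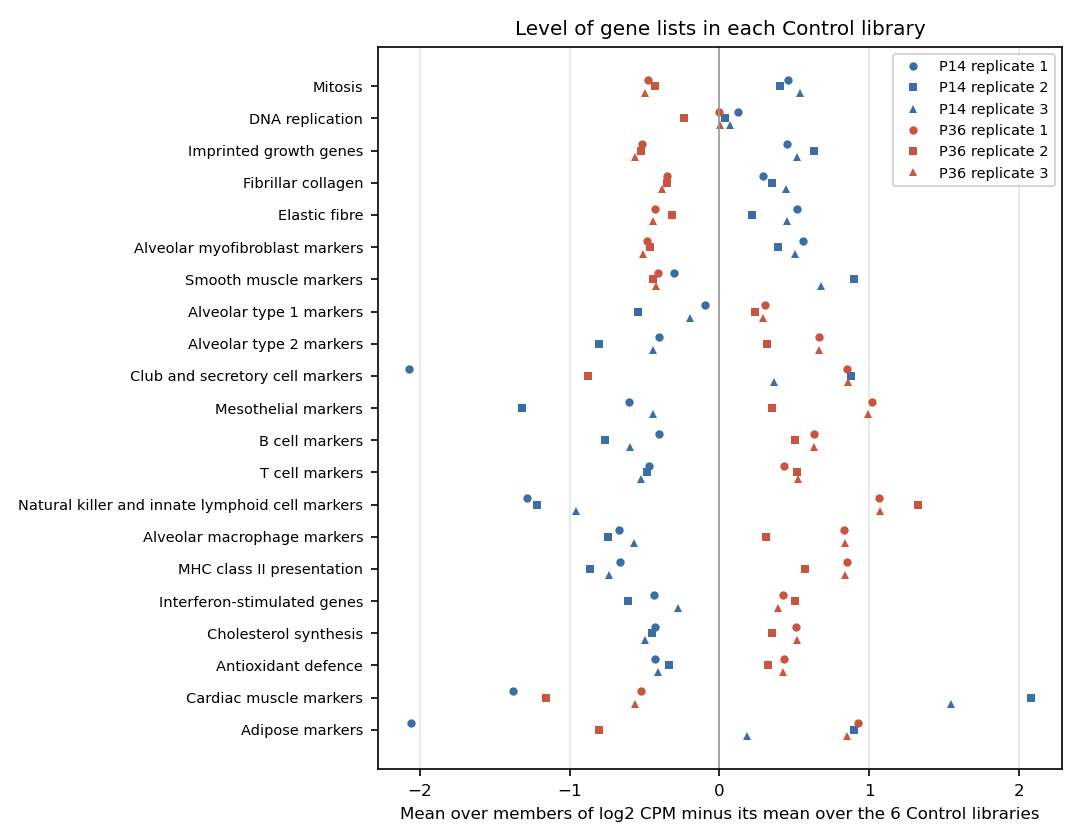
Mean level of 21 gene lists in each Control library, as the average over tested members of log2 CPM minus that gene's mean over the 6 Control libraries. Blue marks are P14, red marks P36 and shapes the replicates. The immune, type 2 cell, cholesterol and antioxidant lists separate the ages. P14 replicates 2 and 3 stand apart in the cardiac and smooth muscle lists, and P14 replicate 1 in the club cell and adipose lists.

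Lipid and detoxification genes rose. Of 22 genes of cholesterol synthesis and its control, 20 were higher and 0 lower (17 pair-summed), with a median of 0.92. Fdft1, squalene synthase, stood at 13.9, 12.97 and 13.99 CPM at P14 and 41.1, 33.7 and 40.5 CPM at P36. Insig1, a feedback regulator in the endoplasmic reticulum, stood at 33.96, 33.3 and 29.7 CPM at P14 and 92.2, 87.2 and 90.9 CPM at P36, a log2 difference of 1.48 ± 0.08 (SE, adjusted p = 8.2e-07). Msmo1, a sterol oxidase, rose by 1.44 on the log2 scale. Of 16 genes of lipogenesis and surfactant lipid, 10 were higher and 1 lower (8 and 0 pair-summed, with 5 higher in the 4-library fit). Abca3, the lipid pump of lamellar bodies, rose by 0.49, and Elovl1, a fatty acid elongase, from 76.3, 62.1 and 73.6 CPM at P14 to 179, 163 and 172 CPM at P36. Of 28 xenobiotic metabolism genes, 17 were higher and 0 lower (13 pair-summed and 11 in the 4-library fit). Beside Cyp1a1, Gstm1, a glutathione transferase with close paralogs, stood at 98.99, 113 and 115 CPM at P14 and 277, 247 and 279 CPM at P36, and Cyp4b1 and the epoxide hydrolase Ephx1 rose by 1.18 and 1.30. Of 18 antioxidant genes, 16 were higher and 0 lower (14 pair-summed). Catalase, Cat, stood at 249, 239.5 and 251 CPM at P14 and 493, 445 and 493 CPM at P36, and Slc7a11, the cystine importer, at 1.71, 1.97 and 1.52 CPM at P14 and 5.76, 5.48 and 5.48 CPM at P36. Gpx4 and Hmox1, which detoxify lipid peroxides and break down heme, rose by 0.80 and 0.73. Retinoid genes moved both ways, with 5 of 16 higher and 2 lower (3 and 1 pair-summed), against 20.9% of all genes in each direction. Lrat, which esterifies retinol for storage, rose from 15.1, 6.51 and 13.5 CPM at P14 to 142, 81.6 and 153 CPM at P36, a log2 difference of 3.42 ± 0.52 (SE, adjusted p = 0.00072), and Crabp1, described above, fell.

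Clock genes differed in opposite directions. The circadian clock is a feedback loop in which the activators encoded by Arntl, Clock and Npas2 switch on repressors that include Nr1d1, and the phase of each gene depends on the time of day. Of 17 clock genes, 6 were higher and 5 lower (5 and 4 pair-summed), against 20.9% of all genes in each direction (15.8% and 12.5% pair-summed), and their median was 0.08. Nr1d1, the repressor REV-ERB alpha, stood at 24.9, 44.1 and 36.5 CPM at P14 and 322, 332 and 318 CPM at P36, a 9.22-fold rise and a log2 difference of 3.20 ± 0.17 (SE, adjusted p = 1.2e-06). The P36 libraries lay within 15 CPM of each other. The repressor genes Bhlhe40 and Bhlhe41 stood at 26.2, 32.6 and 30.5 CPM at P14 and 89.7, 82.6 and 90.1 CPM at P36, and at 12.6, 16.5 and 15.6 CPM at P14 and 66.02, 39.6 and 67.3 CPM at P36. Npas2 went the other way, from 11.7, 18.2 and 17.4 CPM at P14 to 3.07, 4.08 and 3.71 CPM at P36, a log2 difference of -2.13 ± 0.26 (SE, adjusted p = 0.00012). Dbp, an output gene of the loop, rose from 14.7, 20.02 and 15.9 CPM at P14 to 163, 92.3 and 149.9 CPM at P36 and Arntl fell from 23.8, 22.3 and 24.7 CPM at P14 to 5.86, 8.37 and 6.52 CPM at P36, and both were singled out after their values had been seen. CKO lung gave the same directions, with Nr1d1 at a log2 difference of 3.63 ± 0.17 (SE, adjusted p = 2.2e-06) and Npas2 at -0.89 ± 0.25 (SE, adjusted p = 0.023). The time of day of tissue collection is not in the labels and cannot be told apart from age here. The Nr1d1 promoter (chr11:98775328-98775627, minus strand, GRCm38.p6) is shown 5′ to 3′ as the gene of the list with the smallest p.
Nr1d1: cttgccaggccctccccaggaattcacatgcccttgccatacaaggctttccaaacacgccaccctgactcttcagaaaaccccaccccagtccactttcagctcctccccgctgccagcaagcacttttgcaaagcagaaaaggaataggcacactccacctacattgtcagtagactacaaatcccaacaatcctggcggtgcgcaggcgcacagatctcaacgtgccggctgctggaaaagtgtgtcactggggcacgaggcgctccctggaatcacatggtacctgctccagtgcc
It was searched for the E-box CACGTG, bound by the activators, and for the D-box TTATGTAA, bound by Dbp and Nfil3, and neither was in this window, which is why it has no capitals. CACGTG was in the promoters of 5 of 15 clock genes with an entry and in 7.15% of all promoters, and TTATGTAA in 1 of 15 and 0.938%. Bhlhe40 has no entry.

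Among genes that respond to handling or stress, most of the immediate early list was higher at P36. The share of all genes was 20.9% in each direction (15.8% higher and 12.5% lower pair-summed). The hypoxia and glucocorticoid lists were near or below it. Of 18 immediate early genes, 12 were higher and 1 lower (11 and 0 pair-summed, with 7 higher in the 4-library fit), with a median of 0.70. Junb, a subunit of the AP-1 factor, stood at 18.9, 26.4 and 19.8 CPM at P14 and 64.7, 73.7 and 64.8 CPM at P36, a log2 difference of 1.64 ± 0.13 (SE, adjusted p = 7.2e-06). Zfp36, which destabilises cytokine mRNA, stood at 67.9, 77.6 and 62.8 CPM at P14 and 202, 192 and 205 CPM at P36, and Jun and Ier3 rose by 0.73 and 1.31 on the log2 scale. Of 10 heat shock genes, 4 were lower and 3 higher (3 and 1 pair-summed, 2 and 1 in the 4-library count). Hsph1 fell from 42.96, 45.96 and 43.6 CPM at P14 to 23.5, 26.1 and 22.4 CPM at P36, and Dnajb1 by 0.41. Of 12 hypoxia genes, 2 were higher and 1 lower in both fits (4 higher without P14 replicate 2 and 2 lower without P14 replicate 1). The lower one was Adm, adrenomedullin, which fell from 15.2, 12.7 and 14.7 CPM at P14 to 2.61, 4.29 and 2.698 CPM at P36. Among 11 genes induced by glucocorticoids, 1 was higher with the libraries apart and 0 with the pair summed or with any 1 Control library left out, and 1 was lower without P14 replicate 3. How the tissue was taken at each age is not in the labels, and its part in these differences was not tested.

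**Figure D4:**
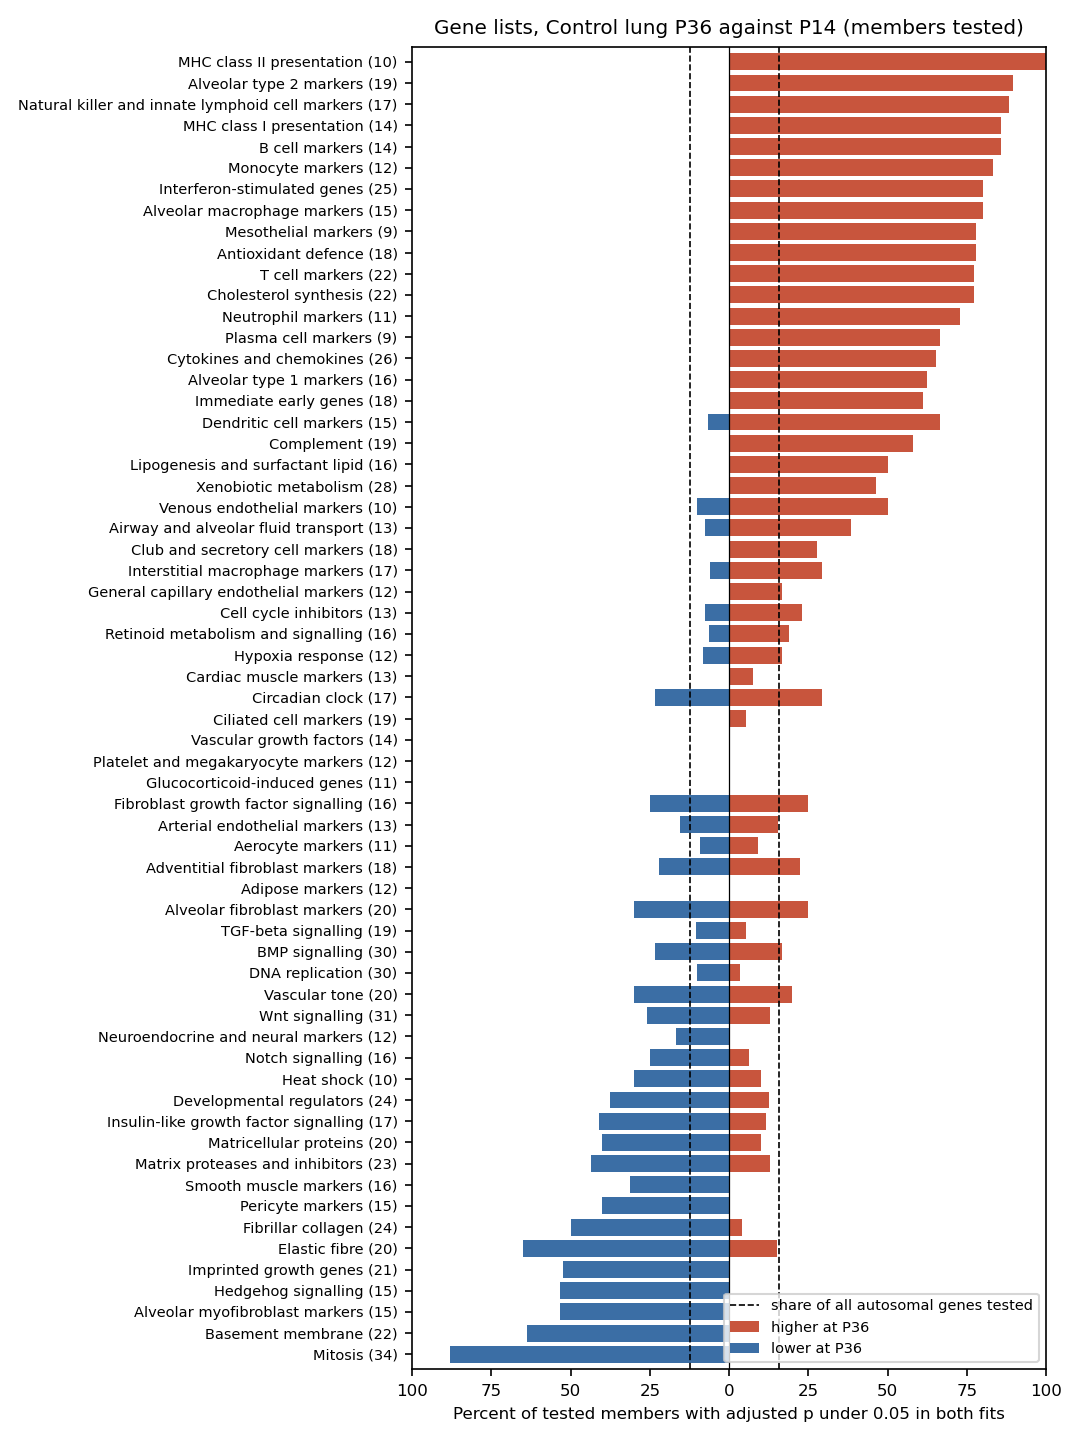
Share of the tested members of each gene list with at least 9 tested members that passed an adjusted p of 0.05 in both fits, higher at P36 to the right in red and lower to the left in blue, in percent. Dashed lines mark the share of all autosomal genes, 15.8% higher and 12.5% lower; MHC class II presentation is at 100% on the right and mitosis reaches furthest to the left.

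The age difference of Control lung was set beside that of CKO lung, which comes from 6 other libraries. CKO P14 replicates 2 and 3 also share a library number, and all 3 CKO libraries at P14 had Xist while all 3 at P36 had Y-linked reads, so sex and age cannot be told apart in CKO. Of the 6424 genes called in Control, 5748 (89.5%) differed in the same direction in CKO, against 74.6% of all genes tested. Of the same 6424, 2882 (44.9%) were also called in CKO in that direction, which is 68.1% of the 4230 CKO calls (27.5% of all genes, 14.5% higher and 13% lower), and 24 were called in the opposite direction. With the shared-number pairs of both genotypes summed, 1500 genes were called in both in the same direction, 34.4% of the Control calls and 72.4% of the 2071 CKO calls (13.5% of all genes, 6.7% higher and 6.77% lower). Mitosis genes had a median of -0.93 in Control and -0.42 in CKO, with 13 of 34 lower in CKO (10 pair-summed). Elastin fell by 3.42 on the log2 scale in Control and had a log2 difference of -2.48 ± 0.24 (SE, adjusted p = 0.00012) in CKO. Cholesterol synthesis gave 20 higher of 22 in Control and 19 in CKO (17 in each pair-summed). Type 2 cell markers gave 18 of 19 in Control and 9 in CKO (17 and 6 pair-summed), with medians of 1.14 and 0.38. Interferon-stimulated genes gave 22 of 25 and 10 (20 and 6 pair-summed), with medians of 0.95 and 0.20. Ciliated markers went the other way, with 1 of 19 higher in Control and 11 in CKO (1 and 2 pair-summed). The differences between these counts were not tested as such. Gene by gene, the Control age difference departed from the CKO one in 239 genes (1.55%) with all libraries apart, and in 0 with the shared-number pairs summed, where 1917 genes (12.5%) were under an unadjusted p of 0.05. DESeq2 with all libraries apart called 1028 genes. Leaving out either P36 replicate 1 or P36 replicate 3 also gave 0, leaving out P14 replicate 3 gave 6, P14 replicate 2 24, P14 replicate 1 384 and P36 replicate 2 686. These calls therefore rest on how the shared-number libraries are counted and on single libraries.

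**Figure D5:**
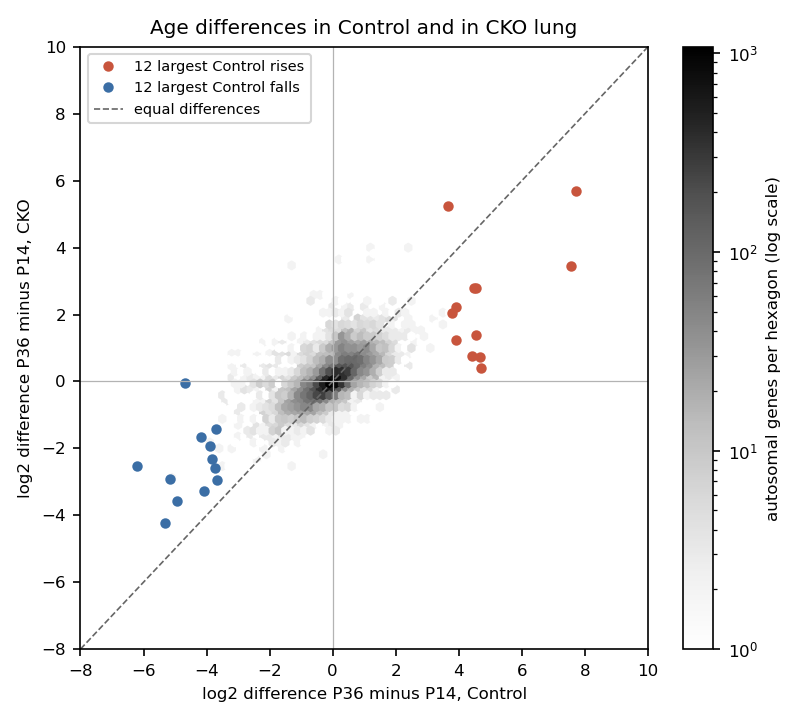
Log2 difference between P36 and P14 of each autosomal gene in Control lung (horizontal axis) and in CKO lung (vertical axis), with the number of genes per hexagon in grey on a log scale. Red and blue points are the 12 largest Control rises and falls, which were chosen on the horizontal axis, and the dashed line marks equal differences; 89.5% of the genes called in Control have the same sign on both axes.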

How the data were processed

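RNA of mouse lung was sequenced in 12 libraries. Per the labels' protocols, the extraction used miRNeasy, and KAPA RNA HyperPrep libraries started from 100 ng of RNA. Per the submitters' processing notes, reads were checked with FastQC, aligned with STAR to mm10 and counted with featureCounts. The tools' versions, the strand setting and the annotation release are not given in these sources, so reads of overlapping or antisense genes cannot be told apart. The values used are the counts of reads per gene deposited by the authors, and gene lengths are those deposited with them. A deposited table of log2 CPM from edgeR was not used. A few list members are not reported here by name.

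Counts were analysed in edgeR 4.0.16 (R 4.3.3). Genes were kept at a minimum count of 10 and a total of 15 (filterByExpr), scaled by TMM and fitted by quasi-likelihood with 4 group means over all 12 libraries, so that all groups share one estimate of the spread. P-values were adjusted over all 15923 tested genes (Benjamini-Hochberg), and autosomal genes are reported. CPM are computed over the tested genes after TMM scaling. Depth was 17806206 to 28481876 counts per library. The counting intervals are exact at 95% and cover counting error only. The floor is a fixed 3 counts over the group, without an interval. The script was tested on simulated data.

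The genes named are the 12 largest rises and falls among autosomal genes with an adjusted p under 0.05 in both fits, 1 CPM or more on average at either age and libraries that do not overlap between ages, leaving out predicted models and heart or skeletal muscle genes on the lists, and up to 4 members of each of 69 gene lists by smallest p. Members and lists were chosen with earlier results of these data known, so they support nothing independently. Alternatives were the summed shared-number libraries, the same without P36 replicate 2, no filter, library totals, DESeq2 (version 1.42.0) and its size factors, the 6 Control libraries alone, a replicate block and each Control library left out. Promoters are from RefSeq.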

Additional observations from a re-analysis of the deposited data

Results flagged for a closer look

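In 27 of the 252 genes selected by the naming rule, the interaction term between age and genotype (Control or CKO) had an adjusted p under 0.05. This was in the edgeR fit with all libraries apart, where 239 (1.55%) of all autosomal genes tested passed. The 252 were chosen mostly by their Control difference, which is part of the term, so their share cannot be read as an excess. Other list members passed as well, such as 2 of 22 basement membrane genes, and only the 27 are described here. Values are the Control difference minus the CKO difference on the log2 scale. In none of the 27 did the term pass with the shared-number libraries summed, and sex differed between the CKO ages, so these values are given without a reading.

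Among immune genes with a term above 0, it was 1.93 ± 0.31 (SE) for Chil3, 1.08 for Siglecf, 0.96 for Itgax and 1.14 for Atp6v0d2, all macrophage genes. It was 1.25 ± 0.13 (SE) for Ccr2 of monocytes, 1.10 for Mgl2, 1.70 for the dendritic cell gene Xcr1, 1.54 for the NK gene Klrb1c and 0.43 for Csf1. It was 1.16 for H2-Aa, 0.95 for H2-DMa, 0.83 for H2-Ob, 1.05 for Psmb9, 0.74 for Ifit1 and 0.82 for Ifit3. Among type 2 cell genes it was 1.21 for Sftpa1, 1.10 for Lyz2 and 0.81 for Chil1. It was 1.59 for Inmt, 1.48 for Gpm6a and 0.66 for Car8.

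Among genes with a term below 0, it was -1.16 for Adamts12, -1.13 for Fbln2, -0.98 for Col5a1, -0.90 for the smooth muscle gene Smtn, -0.89 for Fscn1 and -0.52 ± 0.09 (SE) for Peg3. The CKO differences of Fbln2 and Xcr1 were -0.28 and -0.07, against -1.41 and 1.63 in Control.

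In all 21 genes with a term above 0 the CKO mean at P14 was above the Control mean, and at P36 it was above it in 5 of the 21. Of the 6 genes with a term below 0, the CKO mean was the higher in 1 at P14 and in 5 at P36. The term is computed from these group levels, so choosing genes by it favours such a pattern. Giving Control first and CKO second, Xcr1 stood at 2.12 ± 0.459 and 12.3 ± 2.93 CPM at P14 (SD, n = 3) and at 6.55 ± 1.11 and 11.8 ± 1.33 CPM at P36. Ccr2 stood at 20.96 ± 0.329 and 65.1 ± 7.62 CPM at P14 and at 68.4 ± 6.65 and 89.2 ± 5.11 CPM at P36. H2-Aa stood at 122 ± 18.6 and 306 ± 53.3 CPM at P14 and at 371 ± 37.2 and 417 ± 74.8 CPM at P36. Inmt stood at 274 ± 60.6 and 644 ± 104 CPM at P14 and at 1044 ± 82.2 and 817 ± 188 CPM at P36.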

How the results depend on the processing

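With the shared-number libraries summed, 2432 autosomal genes were higher and 1939 lower in Control. With P36 replicate 2 also left out, the counts were 1736 and 1522. The summed libraries are the P36 pair in Control and the P14 pair in CKO. Counts in this paragraph may include autosomal genes outside the 15372 described, and so can differ slightly from those given above. Leaving out 1 Control library at a time gave 2382 to 3141 higher and 2417 to 3288 lower genes. CKO calls went to 2072 with the pairs summed, 1847 with P36 replicate 2 also left out, and 3645 to 4393 with 1 Control library left out. The difference between genotypes, called in 239 autosomal genes, was called in 0 with the pairs summed (1917 at an unadjusted p of 0.05), 0 with P36 replicate 2 also left out (1811 at an unadjusted p of 0.05), 142 with no filter, 1028 by DESeq2 and 0 to 686 with 1 Control library left out. Every gene called in Control kept its direction in the 4-library fit, and 3209 of the 6424 passed there. Of the 252 genes selected by the naming rule, 6 lost their call with the pair summed. The rule asked for a pass with the pair summed, except in lists with no such member, so that count was set by the selection. Of all 6424 Control calls, 67.8% passed with the pair summed. At most 6 of the 252 lost their call under the other alternatives run, apart from the 4-library fit, where more did. No direction changed.

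A replicate block in the 6 Control libraries gave 2458 higher and 2238 lower genes. Libraries of the same replicate number correlated at -0.21, -0.25 and 0.13 in their deviations from the age means. Among the P14 libraries only replicate 3 correlated best with its own replicate number. P36 replicates 1 and 3 are nearly alike and can hardly be told apart here, so this check cannot show whether replicates were paired. Depth was higher at P36 than at P14, and genes near the filter have few P14 counts.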

Other observations

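Neural and glial genes were read from few counts. Of 12 tested genes of neuroendocrine cells and nerve, 5 were lower and 0 higher, with 2 lower when the shared-number libraries were summed and 0 lower with P36 replicate 2 also left out. The count was 2 without P14 replicate 2, 2 without P14 replicate 3, 2 without P36 replicate 3 and 3 without P36 replicate 1 or 2. Sox10, a transcription factor of Schwann cells, stood at 0.8999, 1.82 and 2.31 CPM at P14 and 0.141, 0.0850 and 0.201 CPM at P36. Gfra3, a receptor of the artemin ligand, stood at 0.142, 1.33 and 1.37 CPM at P14 and at most 0.121 CPM at P36. Both were lowest at P14 in replicate 1, and P14 replicates 2 and 3 are the libraries high in heart genes.

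Of 14 genes of vascular growth factors and their receptors, 0 were higher and 2 lower, with 0 in either direction when the shared-number libraries were summed, and 4 lower without P36 replicate 2. Vegfc and Flt4, a lymphatic ligand and its receptor, had log2 differences of -0.35 ± 0.12 and -0.28 ± 0.09 (SE), with adjusted p = 0.13 and 0.19 by edgeR with the pair summed. Of 6 genes of platelet-derived growth factor signalling, Pdgfa had a log2 difference of 0.20 and Pdgfrb one of -0.89, and neither passed with the pair summed (adjusted p = 0.094 and 0.059).

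Of 13 cardiac muscle genes, 3 were lower and 1 higher, with 0 lower and 1 higher when the shared-number libraries were summed, 6 lower without P14 replicate 1, and 0 lower when any other Control library was left out. The higher one was Myh7, at 25.7, 28.2 and 25.9 CPM at P14 and 44.6, 33.0 and 40.8 CPM at P36. Of 5 skeletal muscle, 12 adipose and 4 basal cell genes tested, 0 passed in either direction with the libraries apart or the pair summed, while 1 skeletal muscle gene was lower without P14 replicate 1 and 1 higher without P36 replicate 2. Of 8 lymphatic endothelial markers, 2 were lower and 1 higher, with 1 and 1 when the pair was summed. The lower count was 3 without P36 replicate 2 and 1 without P14 replicate 3, P36 replicate 1 or P36 replicate 3, and the higher count was 2 without P14 replicate 2.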
